A study of Rattus norvegicus with 2 samples.

Results

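The cardiac transcription factors described here were 10 genes taken by symbol from the 25399 genes of the deposited gene list: *Gata4* (ENSRNOG00000010708), *Gata6* (ENSRNOG00000023433), *Tbx5* (ENSRNOG00000001399), *Tbx20* (ENSRNOG00000016181), *Tbx18* (ENSRNOG00000010685), *Mef2c* (ENSRNOG00000033134), *Hand2* (ENSRNOG00000060448), *Nkx2-5* (ENSRNOG00000020747), *Tcf21* (ENSRNOG00000016700) and *Esrrg* (ENSRNOG00000002593). Single-cell 3′ libraries were made from hearts of neonatal Sprague-Dawley rats aged 1 to 3 days, males and females pooled. By the study's methods the tissue was ventricular, cut from the apex of the heart. The cells were enriched on a Percoll gradient for intrinsic cardiac adrenergic (ICA) cells, catecholamine-forming cells of the heart. They were then plated, cultured and kept for 2 h with saline (control) or with lipopolysaccharide (LPS, the cell-wall component of gram-negative bacteria) at 1 µg/ml. Each condition was 1 library, so no replicates exist and no test was made, and how the libraries were handled cannot be told apart from the treatment. The question addressed was at what level each factor was found in each kind of cardiac cell, and how that level differed between the LPS and the control library.

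GATA4, NKX2-5, TBX5, MEF2C and HAND2 are the classic factors that act together on the promoters and enhancers of contractile and natriuretic peptide genes and direct the formation of the heart. TBX18 and TCF21 mark the epicardium and the fibroblasts and mural cells that derive from it, whereas TBX20 and GATA6 are broader factors of the cardiac lineages. Estrogen-related receptor γ, the product of *Esrrg*, is an orphan nuclear receptor that drives genes of mitochondrial energy production in cardiomyocytes around birth.

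The control library held 11531 cells with a median of 12479 unique molecular identifiers (UMIs, each a counted RNA molecule) per cell, and the LPS library 12689 cells with a median of 9432. The deposited cell tables put all but 2 control and 8 LPS cells into 11 clusters, numbered from 0. Clusters 0, 1 and 7 are named Fibroblast there, cluster 3 ICA and Cardiomyocyte, clusters 4 and 5 Endothelial and cluster 6 Macrophages, and clusters 2, 8, 9 and 10 carry no name. Although both libraries are labelled as ICA cells, cluster 3 held 7.25% of the control cells and 7.33% of the LPS cells, and cluster 0 held 57.2% and 55.4%. Of the catecholamine genes used as ICA markers, *Dbh* and *Ddc* together had 531 and 448 UMIs in cluster 3, and *Th* had 0 in both libraries. By their leading genes, cluster 2 was pericyte-like (*Rgs5*, *Kcnj8*, *Abcc9*) and cluster 8 was led by the mesothelial genes *Bnc1*, *Upk1b* and *Msln*. Per 1000000 UMIs of the cluster, the summed pericyte markers were highest in cluster 2 (1314 in control, 1067 in LPS cells). The summed smooth muscle markers were highest there too (2430 and 2350). Of 6 mesothelial markers, 5 had UMIs in cluster 8 of the control library (not *Krt19*) and 4 in the LPS library (not *Krt19* or *Lrrn4*). The libraries shared 194 cell barcodes, of which 76 (39.2%) lay in the same cluster, where the cluster shares alone would give 35.3%. Levels below are UMIs summed over the cells of a cluster, per 1000000 UMIs of that cluster (CPM), and shares of cells are shares at a common depth, 3000 UMIs drawn at random from each cell (thinned shares). Intervals in brackets are exact 95% intervals for counting error only. The number of 3′ UMIs per transcript differs between genes, so levels were compared between clusters and libraries and not between genes.

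**Figure D1:**
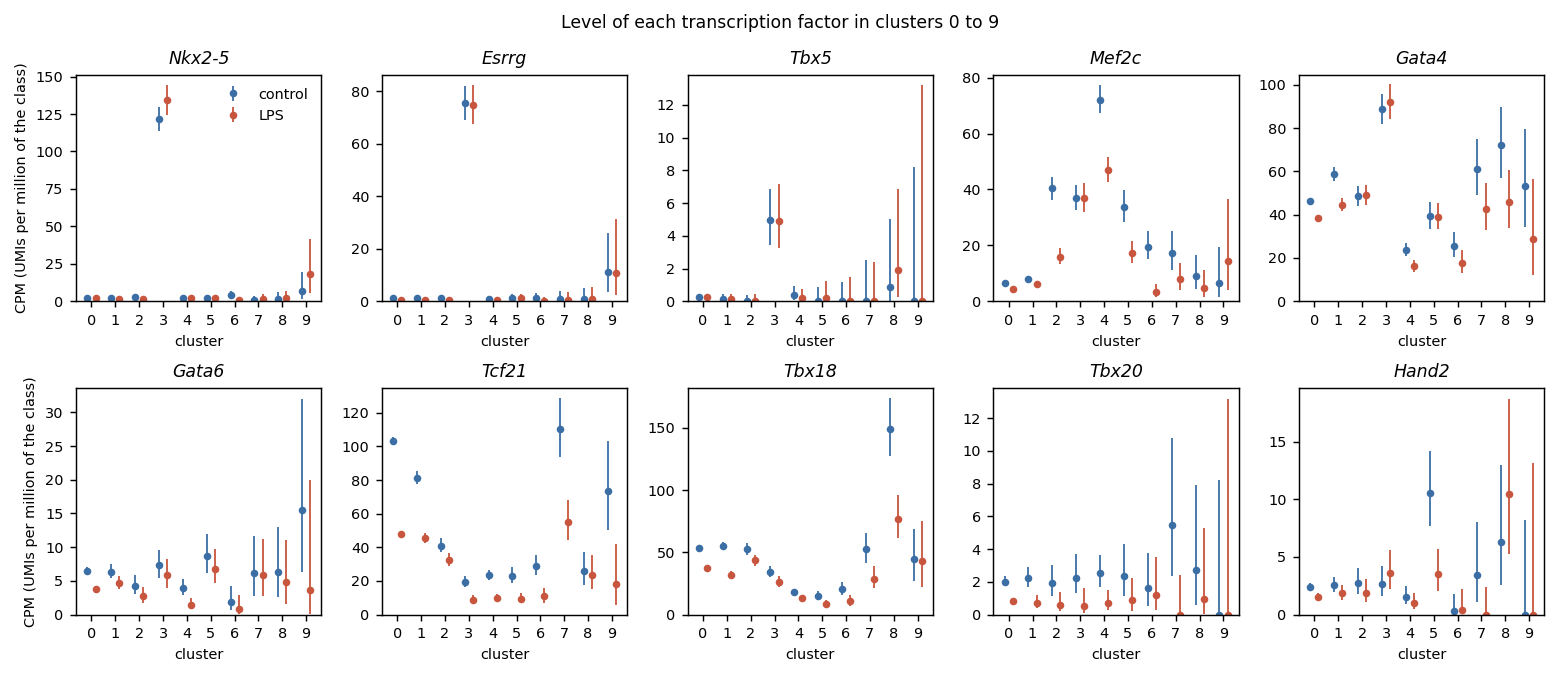
The CPM of each of the 10 genes in clusters 0 to 9 is plotted for the control (blue) and the LPS library (red), with 95% counting intervals as bars. *Nkx2-5* and *Esrrg* stand out in cluster 3 in both libraries. *Tbx5* is highest there too, with intervals that overlap those of cluster 8. *Mef2c* is highest in cluster 4, *Tcf21* in clusters 0, 1 and 7 and *Tbx18* in cluster 8. For *Tcf21* the control interval of cluster 9 overlaps those of clusters 0, 1 and 7.

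*Nkx2-5*, *Esrrg* and *Tbx5* were highest in cluster 3 in both libraries, and their levels there differed little between the libraries. *Nkx2-5*, the homeodomain factor of the cardiomyocyte lineage, was found at 121 CPM (859 UMIs, 113 to 130) in cluster 3 of the control library and at 134 CPM (735 UMIs, 125 to 144) in the LPS library. The LPS library thus stood at 1.11 times control (1.00 to 1.22), the highest ratio among the 8 genes compared in cluster 3, with a lower bound just above 1. Cluster 3 held 74.3% of all *Nkx2-5* UMIs in control and 75.6% in LPS cells. The thinned share of cluster 3 with an *Nkx2-5* UMI was 31.5% (28.3 to 34.7) in the control library and 33.3% (30.2 to 36.4) in the LPS library, against 0.712% and 0.345% of the macrophages, a class that should lack it. At full depth the shares of cluster 3 were 63.5% and 51.1%, where the median cell had 7526 and 5269 UMIs, against 8846 and 6900 in the macrophages. The unthinned share was thus lower in the LPS library while the thinned share was not.

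*Esrrg* was found at 75.4 CPM (534 UMIs, 69.2 to 82.1) in control and 74.6 CPM (409 UMIs, 67.6 to 82.2) in LPS cells of cluster 3, a ratio of 0.989 (0.868 to 1.13). The gene was itself among the 10 leading genes of this cluster, beside *Trdn* and *Casq2* of the calcium release apparatus. Its thinned share was 19.98% (17.3 to 22.9) in control and 21.3% (18.7 to 24.1) in LPS cells. *Tbx5*, the T-box factor of the atria and the left ventricle, was sparse, with 35 UMIs in control and 27 in LPS cells of cluster 3, or 4.94 CPM (3.44 to 6.88) and 4.93 CPM (3.25 to 7.17). The ratio of 0.996 had an interval from 0.580 to 1.69, so that a difference of 1.5 times in either direction was within the counting error. In the other clusters *Tbx5* had at most 24 UMIs in a library, and it had none in clusters 2, 6, 7, 9 and 10. In cluster 8 it had 1 UMI in control (0.0228 to 5.01 CPM) and 2 in LPS cells (0.231 to 6.88 CPM), intervals that overlapped those of cluster 3.

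In the fibroblasts of cluster 0, *Nkx2-5* and *Esrrg* lay inside the low range of relative levels of the cardiomyocyte markers, with *Esrrg* in LPS cells near its lower end. There *Nkx2-5* reached 1.57% of its cluster 3 level in control and 1.48% in LPS cells, and *Esrrg* 1.73% and 0.581%. The 7 cardiomyocyte markers measured (*Myh6*, *Tnnt2*, *Tnni3*, *Actc1*, *Tnnc1*, *Ryr2*, *Actn2*) reached 1.14% to 2.34% of their cluster 3 level in cluster 0 of the control library and 0.487% to 1.86% in the LPS library. Both genes were inside these ranges in both libraries, and the part of RNA from other cells in their cluster 0 UMIs was not tested. The *Esrrg* ratio in cluster 0 was 0.333 (0.218 to 0.495), from 118 and 32 UMIs, while the median of the 7 markers went from 1.92% to 1.58% of their cluster 3 level and their summed level in cluster 0 from 212 to 177 CPM. Cluster 9, which was led by mitochondrial genes and *Myh6* and held 66 and 58 cells, had 3 and 5 *Nkx2-5* UMIs and 5 and 3 *Esrrg* UMIs, too few for a ratio. In that cluster the cardiomyocyte markers were at 10.3% to 36.0% of their cluster 3 level in control, and the 8 fibroblast markers (*Col1a1*, *Col1a2*, *Col3a1*, *Dcn*, *Lum*, *Pdgfra*, *Postn*, *Fbln1*) at 104% to 191% of their cluster 0 level.

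*Mef2c* behaved differently between kinds of cell. The gene encodes a MADS-box factor used by cardiomyocytes, endothelial cells and myeloid cells alike. In the control library it was highest in the endothelial cluster 4 at 72.2 CPM (803 UMIs, 67.3 to 77.3), followed by the pericyte-like cluster 2 at 40.4 CPM (36.4 to 44.6), cluster 3 at 36.9 CPM (32.5 to 41.6) and the endothelial cluster 5 at 33.7 CPM (28.4 to 39.6). The intervals of the last 3 overlapped, and cluster 4 stood above them. In the LPS library cluster 4 was again highest at 46.9 CPM (42.7 to 51.5), cluster 3 had the same 36.9 CPM (31.9 to 42.3), and clusters 5 and 2 were at 17.1 CPM (13.5 to 21.4) and 16.0 CPM (13.4 to 18.9). Clusters 2 and 3, which overlapped in control, were thus set apart in the LPS library, with cluster 3 the higher.

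The *Mef2c* ratio of LPS to control was 1.00 (0.828 to 1.21) in cluster 3, 0.650 (0.579 to 0.730) in cluster 4, 0.509 (0.381 to 0.676) in cluster 5 and 0.395 (0.322 to 0.483) in cluster 2. It was lowest in the macrophages of cluster 6 at 0.164 (0.0679 to 0.345), where 61 UMIs (19.6 CPM) were counted in control and 8 UMIs (3.22 CPM) in LPS cells. As a share of its level in cluster 4, *Mef2c* in macrophages stood at 27.1% in control and 6.86% in LPS cells, against 2.87% to 14.3% and 3.44% to 28.9% for the 7 endothelial markers measured. The control macrophages were thus above the range of the endothelial markers and the LPS macrophages inside it. The thinned share of macrophages with a *Mef2c* UMI was 6.05% (3.56 to 9.51) in control and 0.690% (0.0836 to 2.47) in LPS cells. The ratio in cluster 3 was 2.53 times that in cluster 2 (1.93 to 3.31), 1.54 times that in cluster 4 (1.24 to 1.91), 1.96 times that in cluster 5 (1.41 to 2.73) and 6.08 times that in macrophages (2.85 to 13.0), so that each difference between these ratios was larger than the counting error. In the fibroblasts of cluster 0 the level was 9.23% of that in cluster 4 in control and 9.07% in LPS cells, inside the range of the endothelial markers there (2.04% to 9.63% and 1.33% to 9.39%) and near its upper end, while the medians of those markers were 3.04% and 2.28%.

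*Gata4*, the zinc-finger factor that binds GATA sequences in many cardiac genes, was found in each of the 11 clusters in both libraries, as were *Tbx18*, *Tcf21* and *Mef2c*. It was highest in cluster 3, at 88.7 CPM (628 UMIs, 81.9 to 95.9) in control and 92.0 CPM (504 UMIs, 84.1 to 100.4) in LPS cells. Cluster 8 came next in control at 72.0 CPM (57.1 to 89.6), an interval that overlapped that of cluster 3, and the fibroblast cluster 0 had 46.3 CPM (44.9 to 47.7). Because of the size of cluster 0, it held 56.7% of all *Gata4* UMIs in the control library and cluster 3 held 8.50%. The LPS to control ratio was 1.04 (0.920 to 1.17) in cluster 3, 1.01 (0.881 to 1.16) in cluster 2 and 0.995 (0.801 to 1.24) in cluster 5. It was 0.831 (0.792 to 0.872) in cluster 0, 0.758 (0.696 to 0.825) in cluster 1, 0.680 (0.554 to 0.831) in cluster 4 and 0.635 (0.435 to 0.920) in cluster 8. *Gata4* was thus at like levels in both libraries in the cardiomyocyte, pericyte-like and *Selp*-led endothelial clusters and lower in LPS cells in the fibroblast and *Gpihbp1*-led endothelial clusters. In that last cluster, 4, its level of 23.7 CPM (control) and 16.1 CPM (LPS) was not above that of the macrophages, 25.7 and 17.7 CPM. The macrophage ratio was 0.689 (0.466 to 1.01), and the part of RNA from other cells in these UMIs was not tested. The ratio in cluster 3 was 1.25 times that in cluster 0 (1.10 to 1.42). In cluster 0 the log2 ratio of *Gata4* was -0.27, where the median of all genes was -0.13 and 45.8% of genes had an interval wholly below 1. The median of all genes in cluster 3 was -0.01. Scaling by edgeR's TMM factors, described below, raised the log2 ratio by 0.14 in cluster 0 and by 0.02 in cluster 3.

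*Gata6*, its close relative, was sparse, with 942 UMIs in all control cells and 491 in all LPS cells. In the control library 6.49 CPM (5.97 to 7.03) in cluster 0, 6.37 CPM (5.401 to 7.46) in cluster 1, 7.35 CPM (5.49 to 9.63) in cluster 3 and 8.71 CPM (6.13 to 12.001) in cluster 5 could not be set apart. Cluster 2 at 4.27 CPM (3.05 to 5.82), cluster 4 at 3.95 CPM (2.87 to 5.31) and the macrophages at 1.93 CPM (6 UMIs, 0.707 to 4.19) lay below cluster 0 without overlap. The highest value, 15.6 CPM in cluster 9, rested on 7 UMIs (6.25 to 32.1). In the LPS library *Gata6* was at 3.80 CPM in cluster 0, a ratio of 0.585 (0.506 to 0.676), and at 1.44 CPM (14 UMIs) in cluster 4, a ratio of 0.364 (0.184 to 0.676). In cluster 3 the ratio of 0.795 (0.495 to 1.26) included 1.

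*Tcf21* was the member with the most UMIs, 12496 in control and 5046 in LPS cells, and the one with the largest difference in summed counts. It encodes a basic helix-loop-helix factor that epicardial cells need in order to become cardiac fibroblasts. In the control library it was at 110 CPM (93.9 to 129) in the fibroblast cluster 7, which was led by interferon-response genes, at 103 CPM (101 to 105) in cluster 0 and at 81.5 CPM (77.9 to 85.2) in cluster 1, which was led by cell division genes. In the LPS library these levels were 55.3 CPM (44.1 to 68.4), 47.8 CPM (46.2 to 49.4) and 45.5 CPM (42.6 to 48.6). Cluster 9, which carries no name, was at 73.3 CPM (33 UMIs, 50.5 to 103) in control, an interval that overlapped those of the fibroblast clusters. In LPS cells it was at 17.9 CPM (5 UMIs, 5.81 to 41.7). All 3 fibroblast clusters were lower in the LPS library with intervals that did not overlap, and the gap between clusters 0 and 1 seen in control was within the counting error in LPS cells. The ratio was 0.463 (0.445 to 0.481) in cluster 0, 0.559 (0.516 to 0.605) in cluster 1 and 0.501 (0.380 to 0.656) in cluster 7. The thinned share of cells with a *Tcf21* UMI in cluster 0 was 25.2% (24.2 to 26.3) in control and 12.7% (11.97 to 13.5) in LPS cells, against 4.63% and 2.07% of the macrophages. At full depth the shares in cluster 0 were 64.8% and 34.8%, where the median cell had 12968 and 9822 UMIs.

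Outside the fibroblasts, *Tcf21* in clusters 3 to 6 stood at or below the relative level of the fibroblast markers. In cluster 3 it stood at 18.6% of its cluster 0 level in control and 18.3% in LPS cells, while the 8 fibroblast markers stood at 21.2% to 47.5% and 18.8% to 62.2%. In the macrophages it stood at 28.0% and 22.7%, against 28.5% to 42.6% and 23.7% to 35.8% for those markers. The ratio of 0.456 (0.321 to 0.638) in cluster 3 was 0.985 times that in cluster 0 (0.707 to 1.37), and the *Tcf21* ratios in clusters 3 to 6 lay between 0.376 and 0.456. The part of RNA from fibroblasts in these UMIs was not tested. The pericyte-like cluster 2 differed: *Tcf21* was at 41.0 CPM (37.0 to 45.3) in control and 32.4 CPM (28.6 to 36.5) in LPS cells, or 39.7% and 67.8% of cluster 0, with a ratio of 0.790 (0.674 to 0.925). The fibroblast markers in cluster 2 lay between 24.1% and 76.9% (control) and between 19.0% and 77.7% (LPS) of their cluster 0 level, so that *Tcf21* was inside their range there as well. It was above their medians, which were 28.4% in control and 24.5% in LPS cells.

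The start regions of the gene with the largest difference in CPM in fibroblasts, *Tcf21*, and of *Nkx2-5*, a gene found mainly in cluster 3, are shown because a GATA factor was present in both kinds of cell. RefSeq sequences of build GRCr8, from 250 bases before to 50 bases after the start site, were at hand for 8 of the 10 genes (all but *Gata4* and *Mef2c*). Capitals mark GATA words (AGATAA or AGATAG, or either with T in place of the first letter, on both strands). The *Tcf21* region is chr1:24520249-24520548 on the plus strand and the *Nkx2-5* region chr10:16848350-16848649 on the plus strand.
Tcf21: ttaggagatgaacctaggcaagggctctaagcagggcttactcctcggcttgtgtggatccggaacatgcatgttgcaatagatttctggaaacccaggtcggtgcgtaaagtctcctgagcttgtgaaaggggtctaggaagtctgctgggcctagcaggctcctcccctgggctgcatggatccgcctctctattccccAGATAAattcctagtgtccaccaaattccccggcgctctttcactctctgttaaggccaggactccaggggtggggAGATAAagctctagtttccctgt
Nkx2-5: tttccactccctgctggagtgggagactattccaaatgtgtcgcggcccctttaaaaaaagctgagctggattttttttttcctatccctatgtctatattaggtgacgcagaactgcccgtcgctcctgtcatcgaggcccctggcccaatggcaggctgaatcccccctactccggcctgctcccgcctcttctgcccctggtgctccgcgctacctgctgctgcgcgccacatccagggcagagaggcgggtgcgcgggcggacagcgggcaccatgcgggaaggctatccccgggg
The *Tcf21* region held 2 GATA words, beginning at position -49 and at position 28 from the start site, and the *Nkx2-5* region none. A GATA word was found in 3 of the 8 genes (*Tbx5*, *Hand2* and *Tcf21*) and in 30.3% of all 33469 promoter regions of the same length. The T-box word AGGTGT was found in 1 of the 8 genes (*Gata6*; 13.6% of all regions) and the NK2 word AAGTG in 2 (*Tbx18* and *Hand2*; 46.2% of all regions), on either strand. A match describes letters in this window and no binding.

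*Tbx18*, a T-box factor of the epicardium and of mural cells, was highest in cluster 8, whose leading genes are mesothelial. It was at 149 CPM (166 UMIs, 127 to 174) in control and 77.1 CPM (81 UMIs, 61.3 to 95.9) in LPS cells, with a ratio of 0.517 (0.391 to 0.678). Clusters 0, 1, 2 and 7 followed in control between 52.4 and 54.9 CPM and could not be set apart from each other. In LPS cells these 4 clusters spread out: cluster 2 was at 43.5 CPM (39.1 to 48.1), cluster 0 at 37.6 CPM (36.2 to 39.0), cluster 1 at 32.2 CPM (29.7 to 34.8) and cluster 7 at 28.9 CPM (21.0 to 38.9). The ratio was 0.702 (0.670 to 0.736) in cluster 0, 0.586 (0.533 to 0.645) in cluster 1 and 0.829 (0.722 to 0.951) in cluster 2. In cluster 3 it was 0.763 (0.616 to 0.942), from 34.2 CPM in control and 26.1 CPM in LPS cells. In clusters 5 and 6 *Tbx18* stood at 22.8% to 37.8% of its cluster 0 level, inside the range of the fibroblast markers there in both libraries. In clusters 3 and 4 *Tbx18* stood above the highest of these markers in both libraries. That marker was at 47.5% (control) and 62.2% (LPS) of its cluster 0 level in cluster 3. In cluster 4 it was at 33.2% and 30.8%. The part of RNA from other cells was not tested. The thinned share in cluster 8 was 32.9% (22.1 to 45.1) of 70 control cells and 24.7% (15.8 to 35.5) of 81 LPS cells, with overlapping intervals, against 3.56% and 2.76% of the macrophages. In cluster 8, *Tcf21* was at 26.1 CPM (17.5 to 37.5) in control and 23.8 CPM (15.4 to 35.2) in LPS cells, with a ratio of 0.913 (0.513 to 1.61), and the thinned cells held no cell with a UMI of both *Tbx18* and *Tcf21* (0 of 70 and 0 of 81, where 2.82% and 1.22% would hold both if the genes were unrelated). At these cell numbers 0 allows a share of up to 4.29% and 3.7%.

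*Tbx20* and *Hand2* were near the limit of what these libraries could show. *Tbx20*, a T-box factor of cardiomyocytes, endocardium and valves, had 323 UMIs in all control cells and 96 in all LPS cells, 2.12 CPM (1.89 to 2.36) and 0.753 CPM (0.610 to 0.919). Its ratio over all cells, 0.356 (0.280 to 0.448), was the lowest of the 10 genes. In control its level lay between 1.61 and 2.70 CPM in clusters 0 to 6 and cluster 8, with overlapping intervals. The fibroblast cluster 7 had the largest value, 5.48 CPM (8 UMIs, 2.37 to 10.8). Its interval lay just above that of cluster 0 (1.73 to 2.33) but overlapped those of clusters 1 to 6 and 8. In the LPS library cluster 7 had 0 UMIs, which allows up to 1.97 CPM. The ratio was 0.398 (0.291 to 0.536) in cluster 0 and 0.315 (0.161 to 0.576) in cluster 1. In cluster 3 the 16 control and 3 LPS UMIs were under the 50 UMIs asked for. The thinned share of cells was 0.424% and 0.299% in cluster 0 and 1.07% and 0.345% in macrophages, so that the share in cluster 0 was not above that in macrophages.

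*Hand2*, a basic helix-loop-helix factor of the right ventricle and endocardium, was highest in the control library in the endothelial cluster 5, at 10.6 CPM (45 UMIs, 7.72 to 14.2). In the LPS library this cluster was at 3.52 CPM (16 UMIs, 2.01 to 5.71), a ratio of 0.332 (0.175 to 0.599). The other endothelial cluster, 4, held 1.53 CPM and 1.03 CPM. Cluster 8 had 7 control and 11 LPS UMIs, 6.30 CPM (2.53 to 13.0) and 10.5 CPM (5.23 to 18.7), intervals that overlapped. In cluster 0 *Hand2* was at 2.41 CPM (2.10 to 2.75) and 1.53 CPM (1.26 to 1.84), a ratio of 0.636 (0.502 to 0.802), and in cluster 3 it had 19 and 20 UMIs.

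**Figure D2:**
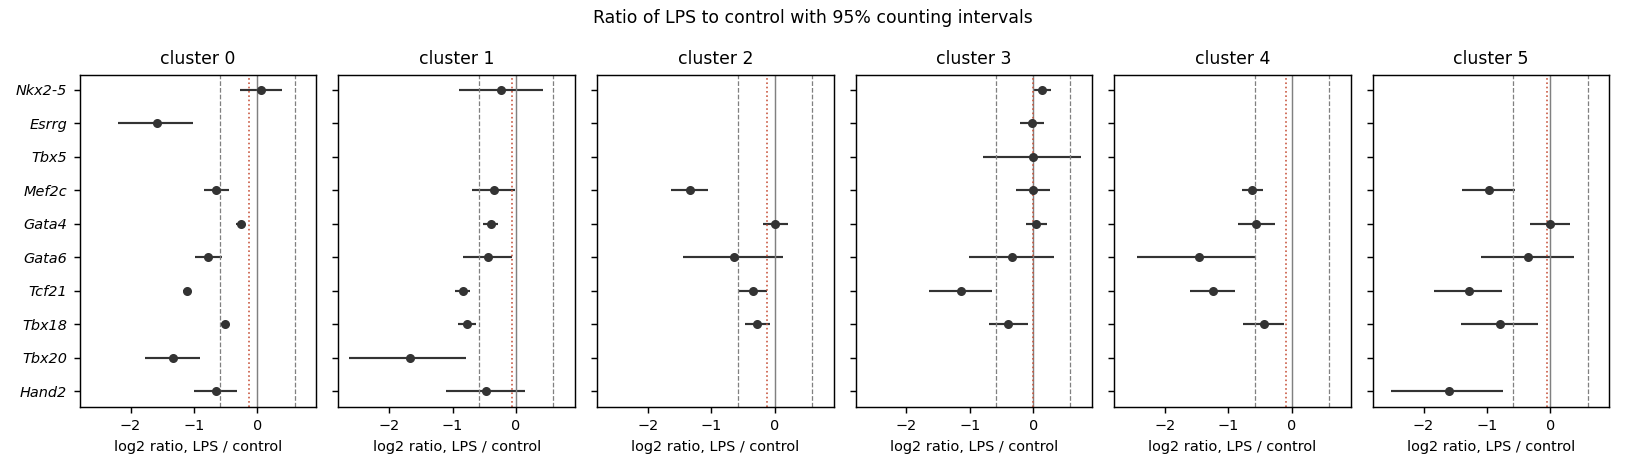
Log2 ratios of LPS to control are plotted for the genes with at least 50 UMIs over both libraries in clusters 0 to 5, with 95% counting intervals as bars. Dashed lines mark a 1.5-fold difference and the dotted red line the median of all genes of the cluster. In cluster 3 all genes but *Tcf21* lie inside the dashed lines, while in cluster 0 *Esrrg*, *Tbx20*, *Tcf21*, *Gata6*, *Hand2* and *Mef2c* lie below them.

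Over all clusters, 110 pairs of a gene and a cluster could be formed, of which 51 had at least 50 UMIs over both libraries and were compared. These pairs come from 10 genes in the same libraries, so they are not separate observations. Of these, 26 were lower in the LPS library by at least 1.5 times and 0 were higher, and 25 were within that fold. The ratio was below 1 in 47 of the 51, and in 59.4% of the 72411 pairs of any gene with one of clusters 0 to 8 that had as many UMIs. Its interval lay wholly below 1 in 36 of the 51 (28.8% of all pairs) and wholly above 1 in 1, *Nkx2-5* in cluster 3 (17.7% of all pairs). In cluster 0, 6 of 9 genes compared were lower by this fold, against 19.7% of all genes compared there. In cluster 3 it was 1 of 8, against 5.4% of all genes, and that 1 gene was *Tcf21*. Lower by this fold were 3 of 8 in cluster 1 (13.3% of all genes), 2 of 5 in cluster 2 (13.6%), 3 of 5 in cluster 4 (13.2%), 4 of 6 in cluster 5 (13.1%), 3 of 4 in cluster 6 (30.8%), 2 of 3 in cluster 7 (11.7%) and 2 of 3 in cluster 8 (7.04%). In clusters 9 and 10 no gene reached 50 UMIs. No pair was higher by the fold, where 6.92% of all genes were in cluster 0, 6.47% in cluster 1, 5.81% in cluster 2, 4.38% in cluster 3, 5.64% in cluster 4, 9.62% in cluster 5, 8.8% in cluster 6, 10.5% in cluster 7 and 6.96% in cluster 8. Summed over all cells, 4 of the 10 genes were lower by the fold (*Tbx20*, *Tcf21*, *Gata6* and *Mef2c*; 18.5% of all genes) and 0 higher (6.57% of all genes).

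The median log2 ratio of the genes compared was -0.65 in cluster 0, where that of all genes was -0.13, and -0.01 in cluster 3, where that of all genes was also -0.01. In the macrophages the medians were -1.15 and -0.31. Scaling by edgeR's TMM factors in place of the total UMIs raised each log2 ratio by 0.14 in clusters 0 and 2, by 0.10 in cluster 4, by 0.32 in macrophages and by 0.02 in cluster 3. With that scaling *Mef2c* (log2 ratio -0.51) and *Hand2* (-0.51) in cluster 0, *Gata6* in cluster 2 (-0.50), *Mef2c* in cluster 4 (-0.52) and *Tbx18* in macrophages (-0.58) were lower by less than 1.5 times, which left 21 pairs past the fold. Every ratio past the fold kept its direction under this and the other scalings. Of the 26 pairs past the fold, 11 lay outside the cell type assigned to the gene and were compared with the markers of that type. *Tbx18* was assigned to the fibroblasts, so the 11 include its pair in cluster 8, where it was highest. The remaining pairs, among them all those of *Gata4*, *Gata6*, *Tbx20* and *Hand2*, were not compared in this way. Of the 11, 8 were at or below the highest marker in both libraries: *Tcf21* in clusters 3, 4, 5 and 6, *Tbx18* in clusters 5 and 6, and *Mef2c* and *Esrrg* in cluster 0. The part of RNA from other cells in these 8 ratios was not tested.

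**Figure D3:**
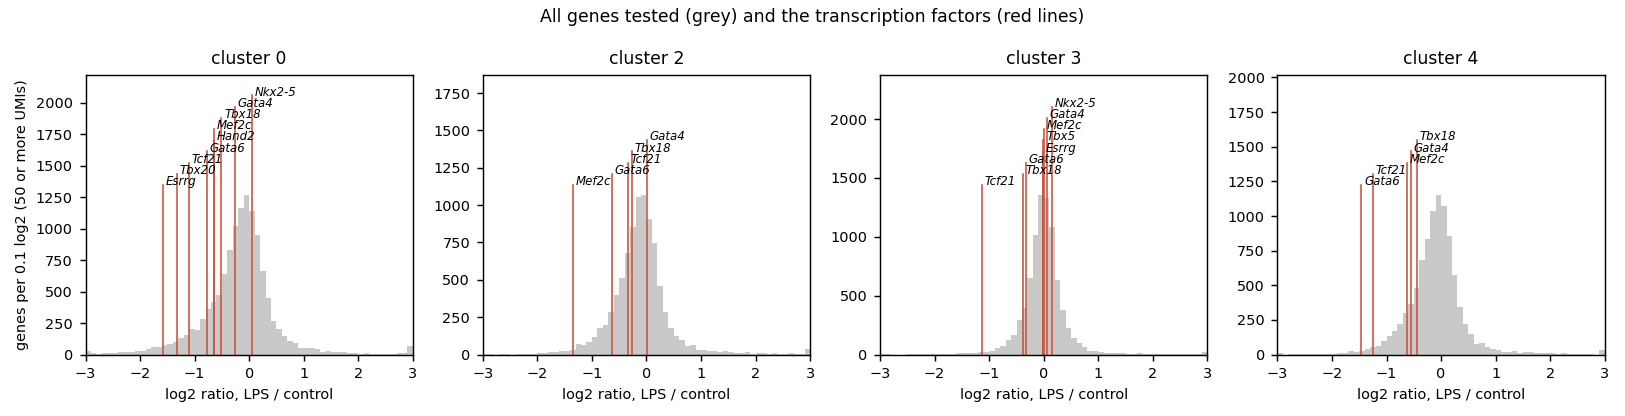
The log2 ratio of LPS to control of all genes with at least 50 UMIs and a UMI in each library is shown as a grey histogram for clusters 0, 2, 3 and 4 (values beyond 3 are placed in the end bins), with a red line for each transcription factor compared. The lines lie left of the peak in clusters 0 and 4, apart from that of *Nkx2-5* in cluster 0, whereas in cluster 3 *Nkx2-5*, *Gata4*, *Mef2c*, *Tbx5* and *Esrrg* lie on it.

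Per cell, the number of the 10 genes detected after thinning was largest in cluster 3, with a mean of 1.03 in control and 0.991 in LPS cells. In cluster 3, shares of 31.1% (control) and 32.8% (LPS) held none of the 10 genes, and 6.94% and 5.18% held 3 or more. In cluster 0 the mean was 0.579 in control and 0.379 in LPS cells, and 52.8% and 66.9% held none. Pairs of these genes were looked for in the same cell of a cluster. *Nkx2-5* and *Esrrg* were both found in 6.58% (control) and 8.10% (LPS) of cluster 3, where 6.28% and 7.08% would hold both if the genes were unrelated. *Tcf21* and *Tbx18* were both found in 3.44% and 1.32% of the cells of cluster 0, against 3.59% and 1.34%. At 3000 UMIs per cell, most cells that express such genes give no UMI of them, so these shares describe detection and not which cells express a gene.

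Of 33 other cardiac transcription factors and cofactors, 23 had enough UMIs in cluster 0, where 11 were lower in the LPS library by at least 1.5 times and 1 was higher, against 19.7% and 6.92% of all genes. In cluster 3, 21 had enough UMIs, 2 were lower and 1 was higher, against 5.4% and 4.38% of all genes, and the medians of the log2 ratio were -0.48 in cluster 0 and -0.02 in cluster 3. The largest differences in cluster 0 were those of *Hey2*, a target of Notch signalling (ratio 0.338, 0.249 to 0.453), of *Nr2f1*, an orphan nuclear receptor (0.479), of *Twist1*, a factor of mesenchymal cells (0.505), and of *Prrx1*, a homeobox factor of mesenchymal cells, which was higher at 50.8 against 25.9 CPM (1.96, 1.87 to 2.07). In cluster 3 the epicardial factors *Wt1* (0.470, 0.267 to 0.796) and *Osr1* (0.431, 0.223 to 0.787) were lower and *Prrx1* was higher (1.66, 1.07 to 2.58). Fibroblast markers stood in cluster 3 at up to 47.5% (control) and 62.2% (LPS) of their cluster 0 level. The part of RNA from other cells in these cluster 3 ratios was not tested. *Mef2a*, a relative of *Mef2c*, was at 82.2 CPM in control and 84.3 CPM in LPS cells of cluster 3.

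Of 9 genes that act with *Esrrg* on mitochondrial genes, 5 had enough UMIs in cluster 0 and 4 in cluster 3. None was past the fold in either. Of all genes, 19.7% were lower and 6.92% higher by the fold in cluster 0, and 5.4% and 4.38% in cluster 3. *Esrra*, which encodes estrogen-related receptor α, was at 101 CPM in control and 99.99 CPM in LPS cells of cluster 3 (ratio 0.986), and *Tfam*, the factor of mitochondrial DNA, at 60.6 and 61.7 CPM. Of 18 textbook targets of the cardiac factors, 14 had enough UMIs in cluster 3. There none was lower (5.4% of all genes) and 1 was higher (4.38% of all genes). The higher target was *Nppb*, the gene of B-type natriuretic peptide, at 253 CPM in LPS cells against 149 CPM in control (1.70, 1.57 to 1.85). *Tnnt2*, *Tnnc1*, *Cox6a2* and *Nppa*, the targets with the highest levels there, were within the fold, for example *Tnnt2* at 4036 CPM in control and 4408 CPM in LPS cells. In cluster 0, 2 of 14 targets were lower by the fold (19.7% of all genes), *Slc8a1* (42 and 16 UMIs) and *Ckm* (0.661).

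**Figure D4:**
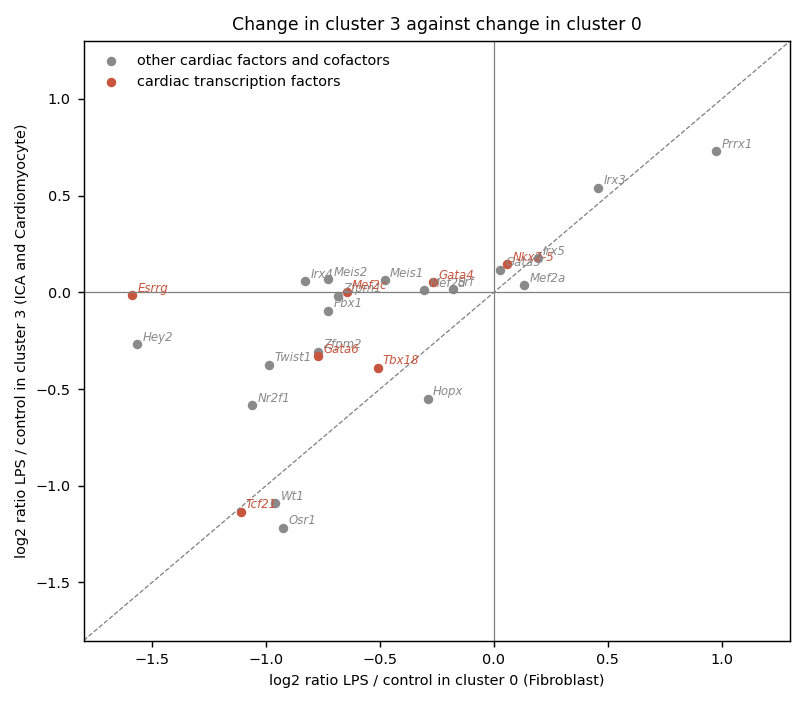
For the 7 cardiac transcription factors (red) and 19 other factors and cofactors (grey) with at least 50 UMIs in both clusters, the log2 ratio of LPS to control in cluster 3 is plotted against that in cluster 0, with the line of equal ratios dashed. *Esrrg*, *Mef2c* and *Gata4* lie near 0 in cluster 3 and below 0 in cluster 0, *Tcf21* lies on the dashed line near -1.1, and *Prrx1* is raised on both axes.

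The genes whose levels over the clusters were most like those of each factor were found by the Pearson correlation of log2(CPM + 1) over 20 values, the 10 clusters with at least 100 cells in both libraries together, among 9834 genes. The values share their libraries and depth, and the correlations are descriptions. For *Nkx2-5* these were *Ankrd1* (r = 0.980), *Apobec2* (0.976) and *Smpx* (0.974), and for *Esrrg* *Eef1a2* (0.989), *Tnni1* (0.986) and *Cox8b* (0.986), genes of muscle. For *Tcf21* they were *Tpst1* (0.930), *Colec12* (0.930) and *Srpx2* (0.921), and for *Tbx18* *G0s2* (0.918), *Dclk1* (0.917) and *Wisp1* (0.905). *Mef2c* was most like *Gna12* (0.884), *Ptp4a3* (0.879) and *Tspan12* (0.865), and *Gata4* most like *Phyh* (0.906), *St6galnac6* (0.885) and *Cryab* (0.873). For *Gata6* they were *Smo* (0.886), *LOC108349606* (0.858) and *Ccni* (0.831), and for *Tbx5* *Atp5f1e* (0.913), *Rab3b* (0.907) and *Mcrip2* (0.889). *Tbx20* was most like *Nmrk1* (0.846), *P4ha3* (0.846) and *LOC680121* (0.827), and *Hand2* most like *Fntb* (0.835), *Tuft1* (0.824) and *Cdc23* (0.822). Among the 10 factors themselves the closest pair was *Nkx2-5* and *Esrrg* (0.975), followed by *Tbx5* with *Nkx2-5* (0.770) and with *Esrrg* (0.731).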

How the data were processed

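Per the labels, cardiac cells of neonatal rats gave 1 control and 1 LPS library (Chromium 3′ v2 kit). The deposited matrices hold raw UMI counts per gene and cell without normalization. The submitters' processing notes name Cell Ranger 2.2.0 and Seurat 2.3.4, and by the study's methods clusters came from RunCCA and FindClusters. The genome build is not given in the sources used here. No doublet caller was run.

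UMIs of each deposited cluster were summed in Python 3.11.15 (numpy 2.4.6, scipy 1.17.1, pandas 2.3.3). Intervals, all 95% and for counting error only, were exact Poisson for levels, exact conditional for ratios, Clopper-Pearson for shares, and on the log scale from the 4 UMI counts for a ratio of ratios. For genes or pairs at 0, 3 UMIs or cells were taken as the limit. Cells are not replicates and no p-value was computed. A gene was compared in a cluster with 50 or more UMIs over both libraries, and the threshold was a 1.5-fold difference. Thinning (seed 1) left out 75 LPS cells and no control cell. Of the markers, *Ttn*, *Pecam1* and *Cd79a* were not usable by symbol. All 10 factors are named, with the 3 genes most like each and up to 4 genes of each other list by size of difference or level. The ratios, their intervals and the fold calls were tried on simulated Poisson counts of clusters 0 and 3. Such counts hold counting error only, so library effects, RNA from other cells and the other steps were not covered. Alternatives were TMM scaling (edgeR 4.0.16, R 4.3.3, on the deposited counts), other totals, folds, minimums, cell filters, classes and thinning depths. The members and lists were chosen with earlier results of these data known.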

Additional observations from a re-analysis of the deposited data

How the results depend on the processing

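No paired analysis was possible because control and LPS are single libraries. Of 51 pairs of a gene and a cluster compared, 26 were lower in the LPS library, against 12 of 51 with a fold of 2 and 21 of 51 with TMM scaling. With a minimum of 1 UMI, 47 of 98 pairs compared were lower and 7 higher. A minimum of 200 UMIs left 30 pairs, of which 13 were lower. Shares of all genes at these settings are not given here. The lower pairs numbered 26 of 51 without mitochondrial genes in the total and without cells under 1000 genes. They also numbered 26 of 51 without the cells whose barcode is in both libraries, an alternative chosen after seeing the data. Without the 8% of cells with most UMIs 49 pairs were compared and 26 were lower, with 4 in place of 3 in cluster 1, 3 in place of 2 in cluster 7, and 2 in place of 3 in clusters 4 and 6. Of 337 ratios recomputed under an alternative, 330 moved by less than their counting interval, 7 moved by more and 0 past the fold changed direction. Among the 7 were *Gata4*, *Tbx18* and *Tcf21* in cluster 0 with TMM scaling. The *Tcf21* log2 ratio in cluster 2 went from -0.34 to -0.09 without the 8% of cells with most UMIs. The cluster with the highest level was the same in 20 of 20 cases with the mean of the cells' own CPM and in 19 of 20 without the 8% of cells with most UMIs. Of 40 shares of cells recomputed with another thinning depth or none, 33 moved, as fewer or more UMIs per cell were kept. Of the 3 genes most like each factor, a rank correlation kept all 3 for *Gata4*, and 9 of the 10 lists changed. It kept 0 of 3 for *Nkx2-5*, *Esrrg* and *Tbx5*. Depth limits *Tbx5*, *Tbx20*, *Hand2* and *Gata6* most, and clusters 9 and 10 gave no ratio.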

Other observations

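The order of the clusters by level was compared between the libraries as a description over the 10 clusters with the most cells. The rank correlation of the 2 orders was 0.939 for *Tcf21*, 0.847 for *Tbx5*, 0.794 for both *Gata4* and *Tbx18*, 0.697 for *Mef2c*, 0.632 for *Hand2* and 0.576 for *Gata6*. It was 0.358 for *Nkx2-5*, 0.176 for *Esrrg* and 0.0243 for *Tbx20*. *Tbx5* had 0 UMIs in clusters 2, 6, 7 and 9 of both libraries, so that its value rests in part on tied ranks. *Nkx2-5* and *Esrrg* were highest in cluster 3 in both libraries, at 18.2 and 6.79 times the next cluster in control and 7.50 and 6.96 times in LPS cells. That next cluster was cluster 9 in each case, where the values rest on 3 to 5 UMIs.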
